A study of Mus musculus with 2 samples.

Results

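The guanylate-binding proteins are a family of interferon-inducible GTPases. The 9 genes Gbp2, Gbp2b, Gbp3, Gbp4, Gbp5, Gbp6, Gbp7, Gbp8 and Gbp9 were chosen by symbol, and they were all among the 31253 genes listed for the series. Unique molecular identifiers (UMIs), tags that mark single captured mRNA molecules, were counted for them in single Cd45+ immune cells from melanoma. B16-F10 cells, a mouse melanoma line, had been injected subcutaneously into C57BL/6 mice, 200000 cells per mouse, and tumors were taken on day 10. The study's methods give the background of the Irg1-/- line as C57BL/6J. The recipients were Irg1+/+ or Irg1-/-, the latter lacking Irg1 (Acod1, the enzyme that makes itaconate) in every host cell, while the injected line was the same in both. For each genotype 100 mm3 pieces from 3 mice were pooled and 6000 Cd45+ cells were sorted into 1 BD Rhapsody library, for which the files hold 6408 and 5896 cell barcodes. The labels give neither age nor sex, and the methods for subcutaneous tumors name females of 8 to 10 weeks. With 1 library per genotype no test between genotypes was possible, and genotype cannot be told apart from the pool of mice, the sort or the preparation.

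The library labelled Irg1+/+ had 6284 kept cells with 42105693 UMIs and a median of 4528 per cell, and the library labelled Irg1-/- had 5794 kept cells with 35307041 UMIs and a median of 4594. Mitochondrial genes were left out of these UMIs and of all values below. Acod1 did not separate the libraries in the way the labels do. Under the label Irg1+/+ it had 3696 UMIs or 87.8 CPM (a gene's UMIs relative to all UMIs of the same cells, without mitochondrial genes). Under Irg1-/- it had 3805 UMIs or 108 CPM. The log2 ratio, Irg1-/- over Irg1+/+ as in all ratios below, was 0.30 (95% interval 0.23 to 0.36). Whether the counted 3' part of Acod1 lies outside the deleted part is not known from the labels, so this gene does not check them, and each direction below rests on the labels alone. Barcodes of 36 cells occurred in both libraries. At least 1 Ptprc (Cd45) UMI was present in 88% and 91.5% of kept cells. All intervals given are exact 95% intervals for counting error only, Poisson for CPM, Clopper-Pearson for shares of cells and conditional binomial for ratios. Those for CPM and ratios take the UMIs of a cell as independent and leave out the spread between cells and between mice. Values called apart below are apart by counting error alone.

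Guanylate-binding proteins are large GTPases of the dynamin superfamily that interferon gamma, and to a lesser degree type I interferon, switches on. They assemble on membranes around intracellular bacteria and parasites, open these compartments together with the immunity-related GTPases, and promote inflammasome activation. Gbp2, Gbp2b (formerly called Gbp1) and Gbp5 carry a C-terminal CaaX box, to which a lipid anchor is attached, and in tumors the family serves as a readout of interferon exposure.

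In GRCm38 the genes lie in 2 clusters. Gbp5, Gbp7, Gbp3, Gbp2b and Gbp2 span positions 142493978 to 142638008 of chromosome 3, all on the plus strand, and Gbp8, Gbp9, Gbp4 and Gbp6 span positions 105014150 to 105293698 of chromosome 5, all on the minus strand. Gbp4, Gbp8 and Gbp9 overlap one another on the same strand in the annotation. Of the stretches of 100 bases in Gbp6 transcripts, 64.5% are also present in Gm43302 or Gbp10, so the Gbp6 values are uncertain. For the other members this share was between 0% (Gbp2 and Gbp2b) and 10% (Gbp7, mostly shared with Gm43802).

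Promoters are shown because the members respond to the same cytokines. Promoters from RefSeq (GRCm38.p6), 250 bases before to 50 after a start, were at hand for 5 of the 9 genes, those of chromosome 3, with 6 entries, and no entry was found for Gbp4, Gbp6, Gbp8 and Gbp9. Capitals mark the core of the interferon-stimulated response element (TTTCNNTTTC, or GAAANNGAAA on the other strand) and the gamma-activated site (TTCNNNGAA, its own reverse complement), searched on both strands. The 2 motifs do not overlap in these entries, and the 2 cores in Gbp3 share bases. The first motif was found in 5 of the 6 entries, 1 for each gene, where 3.44% of all 32851 promoters hold it. A form lacking 1 base, searched first, was found in 2 of the 6 (7.52% of all promoters), and the letters were corrected after the sequences had been seen. The second was found in 2 of the 6, where 8.3% of all promoters hold it.
Gbp2, chr3:142620413-142620712, plus strand: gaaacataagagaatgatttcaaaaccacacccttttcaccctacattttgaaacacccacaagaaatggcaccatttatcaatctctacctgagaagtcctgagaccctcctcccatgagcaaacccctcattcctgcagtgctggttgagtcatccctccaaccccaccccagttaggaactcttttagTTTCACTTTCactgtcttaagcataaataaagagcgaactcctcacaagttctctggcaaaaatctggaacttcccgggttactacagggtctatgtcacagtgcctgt
Gbp2b, chr3:142594597-142594896, plus strand: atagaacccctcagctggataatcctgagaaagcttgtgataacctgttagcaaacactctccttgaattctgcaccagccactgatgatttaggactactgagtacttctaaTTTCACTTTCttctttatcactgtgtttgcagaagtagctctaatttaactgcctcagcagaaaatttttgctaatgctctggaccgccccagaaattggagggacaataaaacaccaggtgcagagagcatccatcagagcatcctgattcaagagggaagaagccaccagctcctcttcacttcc
Gbp3, chr3:142559794-142560093, plus strand: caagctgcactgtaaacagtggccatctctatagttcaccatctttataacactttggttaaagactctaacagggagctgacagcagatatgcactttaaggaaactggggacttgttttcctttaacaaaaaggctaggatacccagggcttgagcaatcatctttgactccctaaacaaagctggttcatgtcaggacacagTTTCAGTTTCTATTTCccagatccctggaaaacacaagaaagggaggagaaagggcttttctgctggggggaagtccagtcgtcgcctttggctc
Gbp5, chr3:142496684-142496983, plus strand: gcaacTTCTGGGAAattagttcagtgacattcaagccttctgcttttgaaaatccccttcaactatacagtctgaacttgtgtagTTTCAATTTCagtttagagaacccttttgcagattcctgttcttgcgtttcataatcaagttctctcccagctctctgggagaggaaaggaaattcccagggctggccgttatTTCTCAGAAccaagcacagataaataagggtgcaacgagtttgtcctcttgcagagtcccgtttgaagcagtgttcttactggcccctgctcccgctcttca
Gbp7, chr3:142530086-142530385, plus strand: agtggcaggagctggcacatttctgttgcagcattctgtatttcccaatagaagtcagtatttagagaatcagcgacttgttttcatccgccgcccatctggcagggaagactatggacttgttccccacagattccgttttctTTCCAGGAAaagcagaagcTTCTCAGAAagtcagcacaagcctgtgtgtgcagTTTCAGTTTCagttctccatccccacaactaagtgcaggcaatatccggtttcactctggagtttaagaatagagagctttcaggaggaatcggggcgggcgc
Counted from the start of transcription, the first core begins at position -59 in Gbp2, -137 in Gbp2b, -45 in Gbp3, -165 in Gbp5 and -53 in Gbp7. Gamma-activated sites begin at -245 and -52 in Gbp5 and at -106 and -87 in Gbp7. A match is a string of letters and was not tested for binding.

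Cells were gated by marker genes that did not include any Gbp gene, and a gate name stands for cells like that type by these markers. Pairs of values below give Irg1+/+ first. A gate was assigned to 72.5% and 74.5% of kept cells, and 12 gates held at least 50 cells in each library. They ranged from T cells (Cd3d, Cd3e, Cd3g, Trac, Trbc2; 1269 and 697 cells) to neutrophils (S100a8, S100a9, Cxcr2; 70 and 194 cells) and included macrophages (C1q genes, Ms4a7 and Adgre1 among others; 752 and 664 cells) and inflammatory monocytes with Vcan, Ly6c2, Chil3 and Hp, called Vcan monocytes below (538 and 645 cells). Median depths differed strongly, from 9838 and 9544 UMIs per cell in macrophages to 960.5 and 1088 in eosinophils. No gated type is known to lack the family, so free RNA was gauged by other genes. The summed C1q genes reached 8.3% to 17.1% of the macrophage level in the other 11 gates of the library labelled Irg1+/+ and 8.14% to 22.7% in the library labelled Irg1-/-, with 8.63% and 8.57% in T cells. Among the 10 genes leading each gate by fold, macrophages, T cells and mature dendritic cells had none of their own markers, but genes such as Vsig4 and Folr2, T cell receptor segments, and Il12b. Their markers were more often present inside than outside the gate, from Cd3g in 87.2% of T cells and 14.2% of other cells to C1qb in 98.7% of macrophages and 68.4% of other cells. Il4i1 was found in 0.658% of mature dendritic cells and in 0% of others. S100a8 and S100a9 stayed at or below 1.3% of the neutrophil level in all other gates of both libraries.

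Gbp transcripts were found in every gate and, among the 12 larger ones, were most abundant in monocytes. The sum of the 9 genes was 2562 CPM (2505 to 2620) in Vcan monocytes under the label Irg1+/+ and 3377 CPM (3317 to 3438) under Irg1-/-, the first place of 12 in both. Nonclassical monocytes, the patrolling kind, came next with 1963 and 2454 CPM. Plasmacytoid dendritic cells, specialists in type I interferon, had the lowest value in both libraries with 673 CPM (602 to 751) and 995 CPM (906 to 1091), so that the highest gate exceeded the lowest 3.81-fold and 3.39-fold. That last place was not apart, since the interval overlapped that of B cells in the first library and that of T cells in the second. Elsewhere in the order too neighbours were often not apart. Only 4 of 11 neighbouring pairs in the library labelled Irg1+/+ and 5 of 11 in the library labelled Irg1-/- had intervals that did not overlap, and these included Vcan over nonclassical monocytes in both. Macrophages were in place 6 with 1283 CPM (1260 to 1307) in the first library and in place 3 with 2040 CPM (2006 to 2074) in the other. T cells (1047 and 1079 CPM) and NK cells (1078 and 1095 CPM) had overlapping intervals in both libraries. In bulk sums of this kind more cells with transcripts and more transcripts per cell cannot be told apart.

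**Figure D1:**
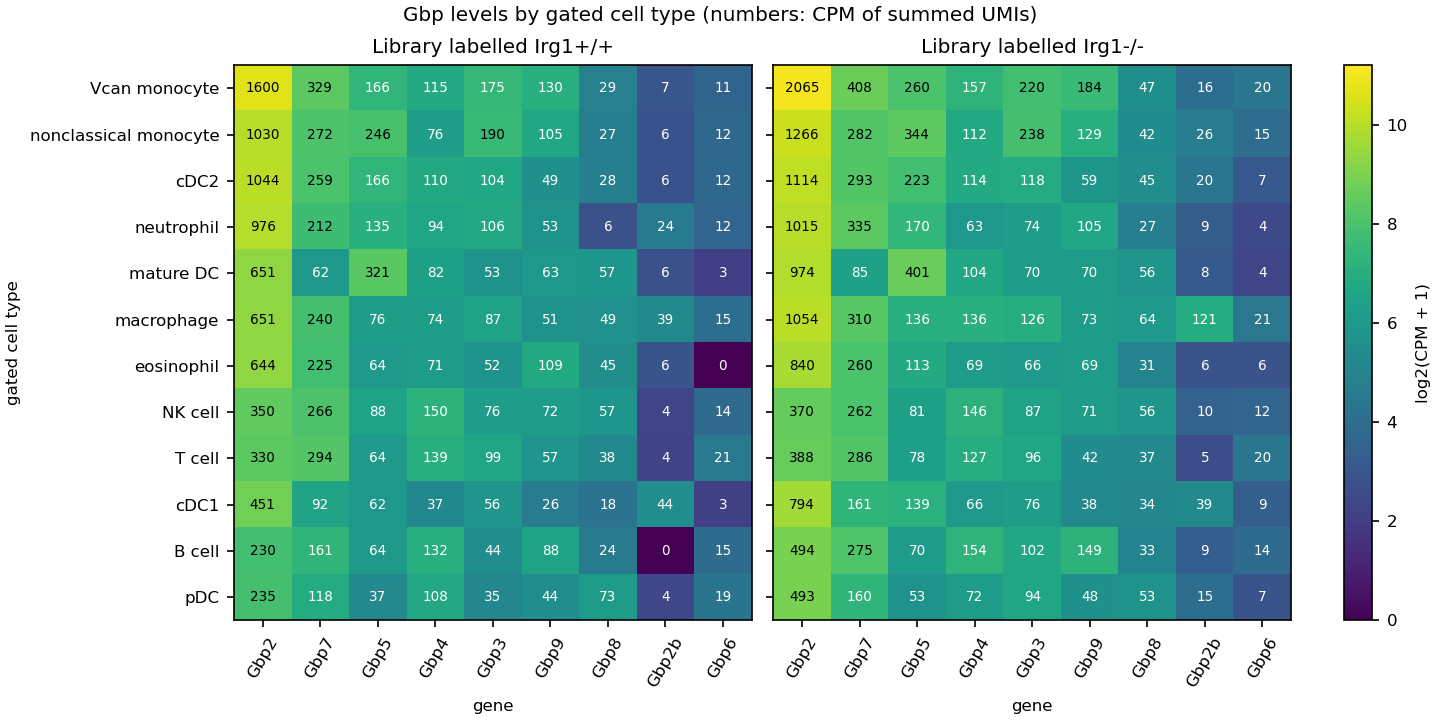
CPM of the 9 Gbp genes (columns) in the 12 gated cell types (rows, ordered by the sum in the library labelled Irg1+/+), 1 panel per library, with colour on a log2(CPM + 1) scale; cDC1 and cDC2 are conventional dendritic cells type 1 and 2, mature DC and pDC mature and plasmacytoid dendritic cells. Gbp2 in Vcan monocytes is the brightest cell of both panels, at 1600 and 2065 CPM, and Gbp2b reaches 121 CPM in macrophages of the library labelled Irg1-/- and 43.5 CPM or less elsewhere.

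Among the members with a CaaX box, Gbp2 was the most abundant, and all 3 differed between gates. Gbp2, which coats bacteria and vacuoles, had 29044 UMIs (50.9% of all Gbp UMIs) in the library labelled Irg1+/+ and 36901 (53.4%) in the library labelled Irg1-/-. It was highest in Vcan monocytes at 1600 CPM (1555 to 1646) and 2065 CPM (2018 to 2113), and lowest in B cells of the first library at 230 CPM (169 to 305) and in NK cells of the second at 370 CPM (346 to 396). Gbp2b was rare, with 752 and 1421 UMIs. It stood at 39.4 and 121 CPM in macrophages and at 43.5 and 39.5 CPM in conventional dendritic cells type 1, the cross-presenting Xcr1+ kind, against 7.00 and 15.7 CPM in Vcan monocytes and 3.86 and 5.33 CPM in T cells. In B cells of the library labelled Irg1+/+ no Gbp2b UMI was found. Gbp5, known to promote NLRP3 inflammasome assembly, was highest in mature dendritic cells (Ccr7, Fscn1), at 321 CPM (299 to 344) and 401 CPM (375 to 428). Under the label Irg1-/- the latter interval overlapped the one of nonclassical monocytes (344 CPM, 306 to 385), while under Irg1+/+ the intervals were apart (246 CPM, 213 to 282). Gbp5 made up 24.7% and 22.6% of the Gbp UMIs of mature dendritic cells, against 6.49% and 7.7% in Vcan monocytes.

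The other members of the chromosome 3 cluster showed a different order. Gbp7, reported to act in NADPH oxidase assembly, was the second most abundant gene overall with 9771 and 10145 UMIs (17.1% and 14.7%). It was highest in Vcan monocytes (329 and 408 CPM), where under the label Irg1-/- its interval overlapped that of neutrophils. It was lowest in mature dendritic cells, at 61.8 CPM (52.5 to 72.3) and 85.0 CPM (73.4 to 98.0), the gate where Gbp5 was highest. In T cells, at 294 and 286 CPM, it was closer to Gbp2 (330 and 388 CPM) than in monocytes or mature dendritic cells, with 89.2 and 73.6 Gbp7 UMIs per 100 Gbp2 UMIs, against 20.5 and 19.7 per 100 in Vcan monocytes and 9.48 and 8.72 in mature dendritic cells. This was not particular to T cells. NK cells had 76.0 and 70.9 per 100, B cells 70.2 and 55.7 and plasmacytoid dendritic cells 50.4 and 32.4. Gbp3 was highest in nonclassical monocytes (190 and 239 CPM), followed by Vcan monocytes (175 and 220 CPM), with overlapping intervals in both libraries.

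Members of the chromosome 5 cluster differed among themselves. Gbp4 was highest in NK cells of the library labelled Irg1+/+ (150 CPM, 131 to 171), where its interval overlapped that of T cells (139 CPM), and in Vcan monocytes of the library labelled Irg1-/- (157 CPM, 144 to 170), where it overlapped those of B cells, NK cells and macrophages. It supplied 13.9% and 13.3% of the Gbp UMIs of NK cells and 13.2% and 11.8% of those of T cells, but 4.49% and 4.65% of those of Vcan monocytes. Gbp9 was highest in Vcan monocytes (130 and 184 CPM). That first place was not apart, since the interval overlapped that of eosinophils under the label Irg1+/+ and that of B cells under Irg1-/-. For Gbp8 the gates ranged from 5.88 CPM in neutrophils, which had few UMIs, to 72.7 CPM in plasmacytoid dendritic cells of the library labelled Irg1+/+, and from 26.8 to 64.0 CPM in the library labelled Irg1-/-. Gbp6 was the rarest of the 9, with 589 and 577 UMIs and at most 21.5 CPM in a gate. Of its look-alikes, Gbp10 had 60 and 51 UMIs and Gm43302 had 0 in both libraries.

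**Figure D2:**
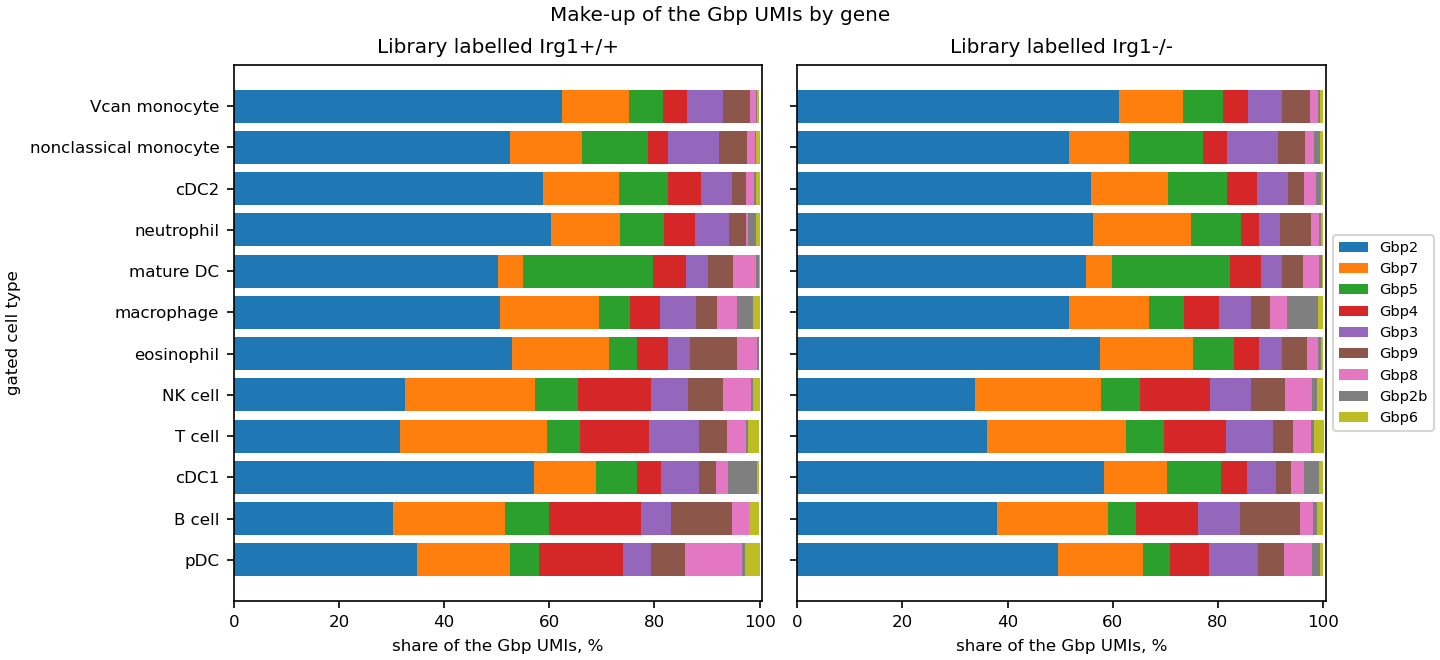
Share of each Gbp gene in the summed Gbp UMIs of a gate (bars, %, summing to 100), by gate and library. Monocytes, macrophages, granulocytes and dendritic cells other than pDC are mostly Gbp2, at 50.2% or more in both libraries, mature dendritic cells (mature DC) have the widest Gbp5 segment, and T, NK and B cells have wide Gbp7 and Gbp4 segments.

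Detection was compared after thinning each cell to 2000 UMIs, since a deeper cell shows more genes. Gbp2 was then found in 65.1% (60.7% to 69.2%) of 501 Vcan monocytes of the library labelled Irg1+/+ and 73.3% (69.5% to 76.8%) of 591 of the library labelled Irg1-/-, against 77.9% and 86.2% unthinned. In macrophages the thinned shares were 52.8% and 65.8%, in conventional dendritic cells type 1 40.8% and 61.2%, and in T cells 43.6% and 46.1%. The first 3 of these gates had intervals that were apart between the libraries, and T cells did not. Gbp5 was found in 44.4% and 44.2% of thinned mature dendritic cells, against 62% and 68.6% unthinned and a higher CPM in the second library, and in 4.35% and 6.25% of plasmacytoid dendritic cells. Thinning left out 121 and 61 macrophages and 188 and 148 T cells, and left few neutrophils (25 and 84) and eosinophils (16 and 27), whose shares are therefore wide.

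**Figure D3:**
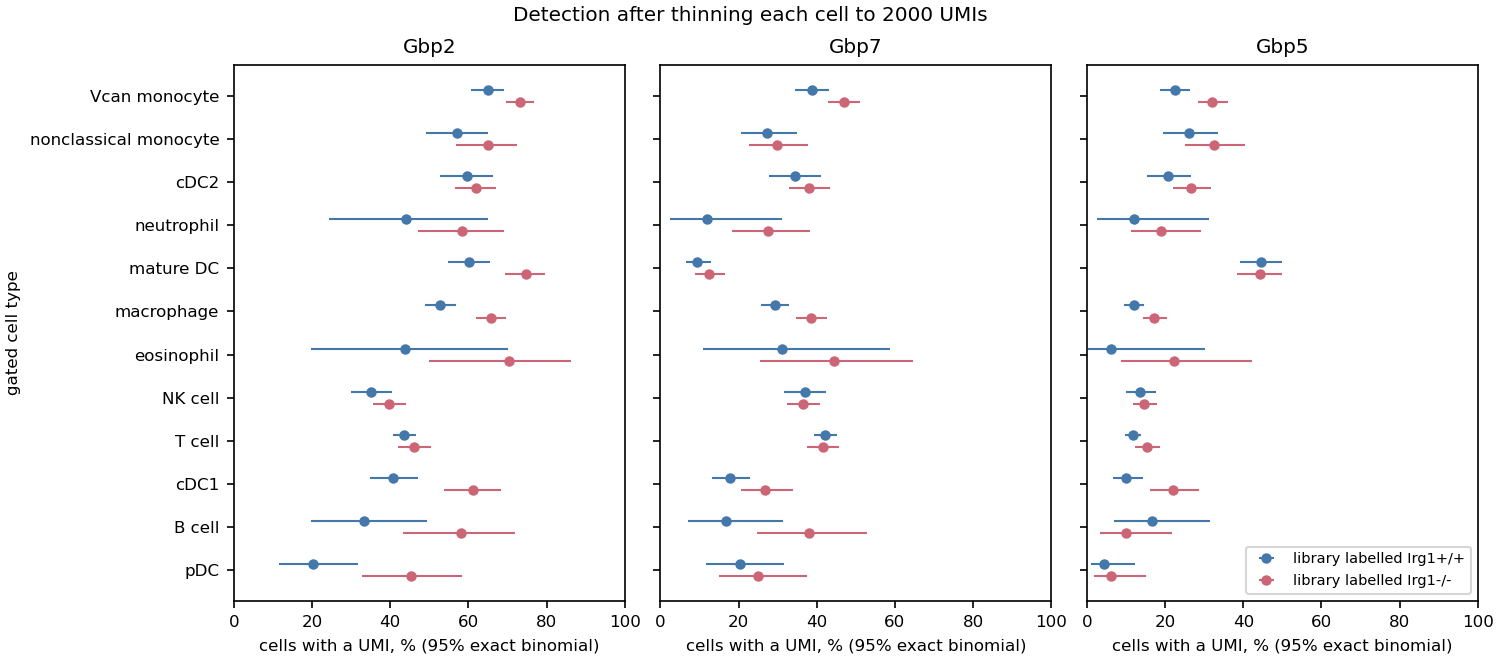
Share of cells with at least 1 UMI of Gbp2, Gbp7 or Gbp5 after thinning each cell to 2000 UMIs (points, %, with exact binomial 95% intervals), by gate and library. Gbp2 lies higher in the library labelled Irg1-/- in all 12 gates, with intervals apart in macrophages at 52.8% and 65.8%, while those of Gbp7 in T cells (42.2% and 41.5%) and of Gbp5 in mature dendritic cells (44.4% and 44.2%) overlap.

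Cells of one gate differed in how many members they showed. A thinned Vcan monocyte showed a mean of 1.97 and 2.46 of the 9 members, none of them in 19.8% and 12.9% of cells and 3 or more in 34.7% (30.6% to 39.1%) and 46.2% (42.1% to 50.3%). Macrophages showed 3 or more members in 19.2% (16.2% to 22.5%) and 33.5% (29.7% to 37.4%), while T cells did so in 24.1% (21.5% to 26.7%) and 26.8% (23.1% to 30.7%). Thinned cells held few Gbp UMIs, with a median of 3 and 4 in Vcan monocytes. The part of sampling in the spread between cells was not tested. Family transcripts were unevenly held. The tenth of thinned cells with the most of them held 42.5% and 38% of the Gbp UMIs of Vcan monocytes, 44.1% and 38.8% of those of macrophages and 36.7% and 35.3% of those of T cells.

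Over all kept cells the family was more abundant in the library labelled Irg1-/-. The sum was 1356 CPM (1345 to 1367) against 1956 CPM (1942 to 1971), and the ratio was 0.53 (0.51 to 0.55). All 9 members had ratios above 0, from 0.22 (Gbp6) to 1.17 (Gbp2b), with a median of 0.41 against -0.08 over the 14204 genes with at least 20 UMIs. At least 1.5-fold higher were 3 of 9 members (Gbp2, Gbp2b and Gbp5), where 5.58% of all genes were. With the gates of the library labelled Irg1-/- weighted to the cell shares of the other library the ratio was 0.43.

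Within gates the family was higher under the label Irg1-/- in macrophages, monocytes and dendritic cells. The sums of the whole T cell and NK cell gates had intervals that included 0, although T cell subsets described below had ratios on either side of 0. In macrophages the sum had a log2 ratio of 0.67 (0.63 to 0.70), and 4 of 9 members were at least 1.5-fold higher (Gbp2, Gbp2b, Gbp4 and Gbp5), where 5.04% of genes were. The make-up of this gate can differ between the libraries. In the 74 and 87 macrophages with UMIs of at least 2 of the resident markers Lyve1, Cbr2, Cd163, Timd4 and Folr2 the sum was 1319 and 1551 CPM, a ratio of 0.23 (0.15 to 0.32), and in the classes by chemokine level described below the ratio was 0.50 to 0.62. The part of the make-up in 0.67 was not tested. In Vcan monocytes it was 0.40 (0.36 to 0.44), with 4 of 9 members (Gbp5, Gbp6, Gbp8 and Gbp2b, the last on 21 and 56 UMIs) against 5.87% of genes. In both gates all 9 members were above 0, with medians of 0.53 and 0.50 against -0.05 and -0.02 over all genes. Conventional dendritic cells type 1 had 0.78 (0.71 to 0.86), or 0.57 with stricter gates, and 7 of 9 members were at least 1.5-fold higher, where 5.91% of genes were. The exceptions there were Gbp3 at 0.43 and Gbp2b at -0.14 (-0.55 to 0.26).

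Other myeloid gates lay between. Nonclassical monocytes had a ratio of the sum of 0.32 (0.23 to 0.42), or 0.19 as the mean of each cell's CPM. In them 2 of 9 members were at least 1.5-fold higher against 6.69% of genes. These were Gbp2b, on 5 and 22 UMIs, and Gbp8, whose interval (-0.16 to 1.48) included 0. With a minimum of 50 UMIs the count was 1. Mature dendritic cells had 0.45 (0.38 to 0.52) with 0 of 8 members counted against 6.19% of genes, although Gbp2 lay just below the line at 0.58. Conventional dendritic cells type 2 had 0.17 (0.10 to 0.23), or 0.32 with stricter gates. Here 2 of 9 members were higher (Gbp8, and Gbp2b on 10 and 57 UMIs) against 6.49% of genes. Lower was 1 (Gbp6, at -0.72 on few UMIs) against 8.19%. In plasmacytoid dendritic cells the sum had 0.56 (0.36 to 0.77), and 2 of 7 members were higher (Gbp2 and Gbp3) against 8.87% of genes. The ratio was 0.22 without the 5% of cells with the most UMIs and 0.31 as the mean of each cell's CPM. Granulocytes gave little information. In neutrophils 2 of 6 members were higher (Gbp7 and Gbp9) against 10.9% of genes and 1 was lower (Gbp4) against 18.8%, and in eosinophils 1 of 6 was higher (Gbp5) against 14.4% and 1 lower (Gbp9) against 13.2%. Their sums had ratios of 0.15 (-0.04 to 0.36) and 0.26 (0.02 to 0.52). The first was 0.36 with TMM scaling and 0.44 after thinning, and the second 0.62 after thinning and -0.25 with stricter gates.

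Lymphocytes split. T cells had a ratio of the sum of 0.04 (-0.004 to 0.09) and 0 of 9 members past 1.5-fold, where 3.24% of genes were higher and 6.62% lower. A count of 0 in 9 is near those shares. NK cells had 0.02 (-0.07 to 0.11) and 1 of 9 members (Gbp2b, on 6 and 24 UMIs, a level that free macrophage RNA could give, as described below) against 5.6% of genes. In these gates 3 of 9 members were above 0 and 6 below, and the medians were -0.04 and -0.03, against -0.05 and -0.03 over all genes. B cells, with 155 and 279 Gbp UMIs from 72 and 76 cells, had 0.78 (0.49 to 1.07) and 4 of 6 members higher (Gbp2, Gbp3, Gbp7 and Gbp9) against 11.4% of genes. Differences between gates in these ratios were not tested.

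**Figure D4:**
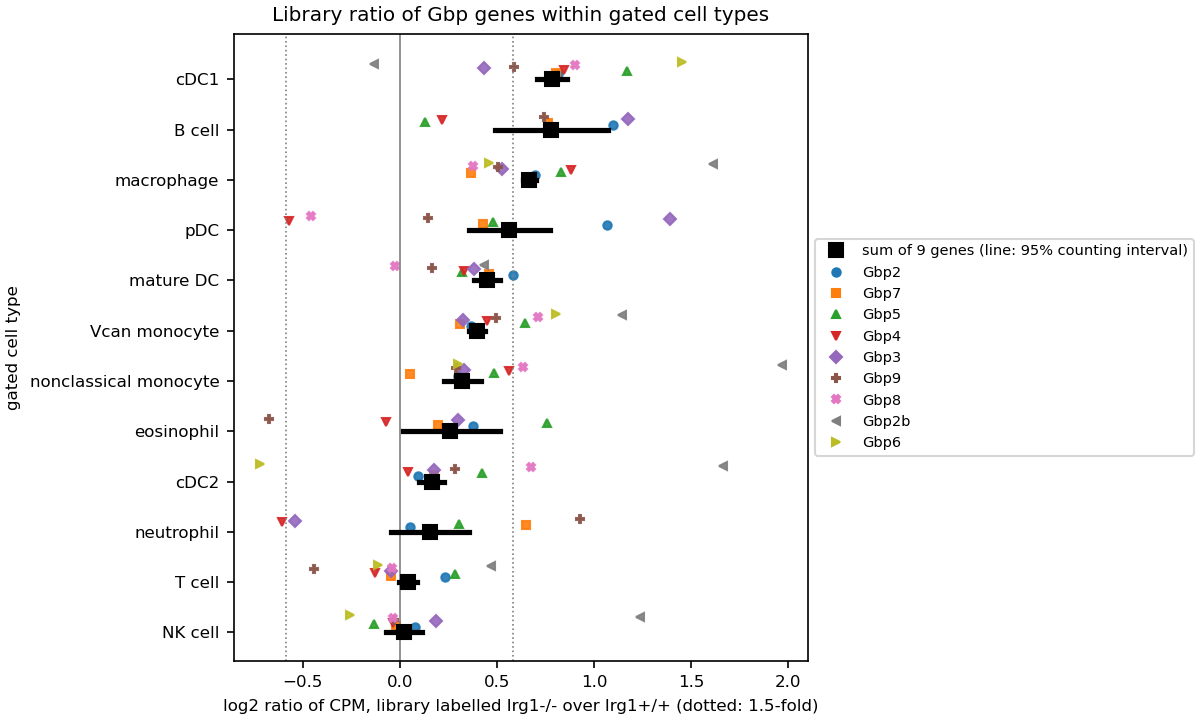
Log2 ratio of CPM, library labelled Irg1-/- over library labelled Irg1+/+, for the sum of the 9 genes (black squares with 95% counting intervals) and for each gene with at least 20 UMIs (coloured marks without intervals), by gate. The sums run from 0.02 in NK cells to 0.78 in conventional dendritic cells type 1 (cDC1), and Gbp2b lies farthest to the right in macrophages (1.61), nonclassical monocytes and cDC2, with 5 and 22 UMIs in nonclassical monocytes and 10 and 57 in cDC2.

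Gbp2b had the widest gap in macrophages. Its 363 UMIs in 752 macrophages of the library labelled Irg1+/+ and 828 UMIs in 664 macrophages of the library labelled Irg1-/- gave a log2 ratio of 1.61 (1.44 to 1.80), and thinned detection was 5.71% (4.03% to 7.81%) and 13.1% (10.5% to 16.1%). Outside macrophages and conventional dendritic cells type 1 Gbp2b levels were low. Levels are set here beside the one that free macrophage RNA would give at the C1q share of a gate. That is the macrophage level of Gbp2b multiplied by that share. That all C1q UMIs of another gate are free RNA was assumed and not tested. In conventional dendritic cells type 1 the product was 5.63 and 11.1 CPM, with 43.5 and 39.5 CPM counted. This product was 3.92 and 12.8 CPM in Vcan monocytes, against 7.00 and 15.7 CPM counted on 21 and 56 UMIs. For nonclassical monocytes it was 3.67 and 12.5 CPM, with 6.11 and 25.7 CPM counted. Conventional dendritic cells type 2 had a product of 3.74 and 11.7 CPM and counts of 6.15 and 20.3 CPM. In NK cells the product was 3.27 and 11.8 CPM and the counted level 4.14 and 10.3 CPM on 6 and 24 UMIs, and in T cells 3.40 and 10.3 CPM stood against 3.86 and 5.33 CPM. Under the label Irg1-/- the product was above the counted level in further gates. It was 27.5 CPM with 6.27 CPM counted in eosinophils and 14.5 CPM with 8.94 CPM counted in neutrophils. In plasmacytoid dendritic cells it was 20.4 CPM with 15.3 CPM counted. The product is therefore not a measured level of free RNA. The part of free RNA in the Gbp2b ratios outside macrophages was not tested. Gbp2b is among the members counted as higher in Vcan and nonclassical monocytes, conventional dendritic cells type 2 and NK cells. No difference in Gbp2b is read from these counts or from the ratios of these gates. Gbp4 and Gbp5 followed in macrophages with 0.88 (0.74 to 1.03) and 0.83 (0.69 to 0.98), Gbp2 with 0.70 (0.65 to 0.75), and Gbp7 was the smallest with 0.37 (0.28 to 0.46). In Vcan monocytes Gbp5 had 166 and 260 CPM, a ratio of 0.64 (0.49 to 0.81). In T cells 6 members had ratios below 0, and Gbp9 was the one whose interval lay wholly there. Gbp9 stood at 57.0 CPM (52.2 to 62.1) and 41.9 CPM (36.6 to 47.7), a ratio of -0.44 (-0.68 to -0.22), while Gbp2 in the same cells stood at 330 and 388 CPM, a ratio of 0.23 (0.15 to 0.31).

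The family's level followed the chemokines Cxcl9 and Cxcl10, which interferon gamma also induces, across the cells of a gate. In Vcan monocytes with 10 or more Cxcl9 and Cxcl10 UMIs per 10000 (144 and 199 cells) the sum was 4888 CPM (4743 to 5035) and 6062 CPM (5922 to 6205), against 1495 CPM (1415 to 1577) and 1759 CPM (1662 to 1860) in those under 1 per 10000 (184 and 162 cells). The ratio between libraries was above 0 at each chemokine level, at 0.31 (0.26 to 0.37) in the highest, 0.40 (0.33 to 0.48) in the middle and 0.24 (0.12 to 0.35) in the lowest class. Macrophages showed the same order. Their sums were 2315 and 3282 CPM in the highest class, 836 and 1208 CPM in the middle and 663 and 1019 CPM in the lowest, with ratios of 0.50, 0.53 and 0.62. Within a chemokine class macrophages stayed below Vcan monocytes of the same library. Classes of this kind are ranges of a score in single cells and not cell types, and their shares depend on depth.

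**Figure D5:**
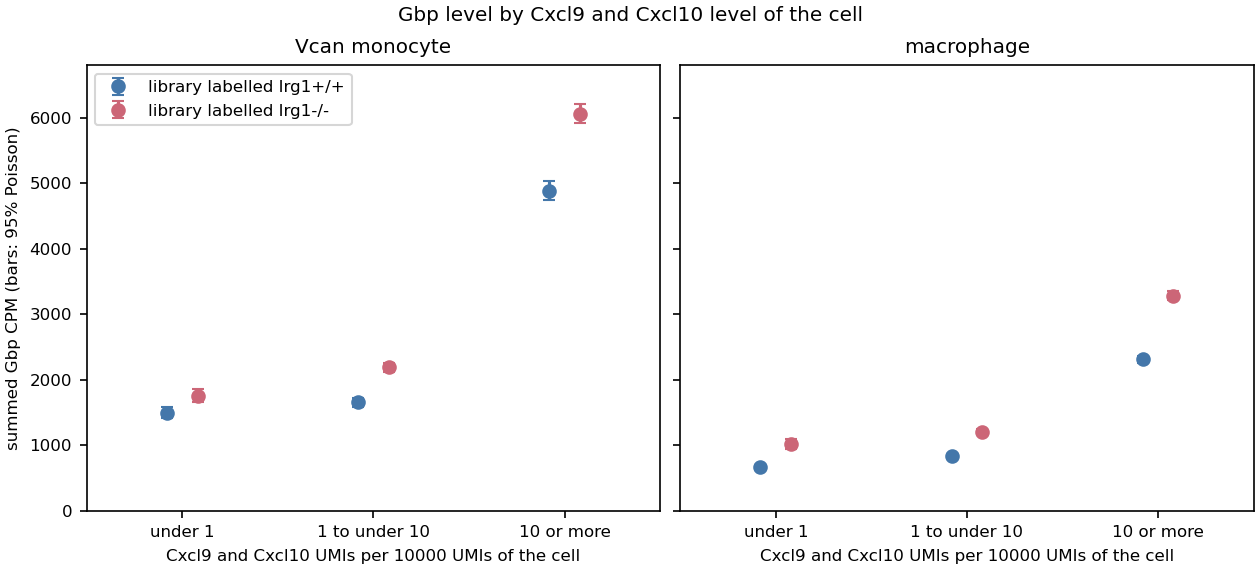
Summed Gbp CPM (points, 95% Poisson intervals) in Vcan monocytes and macrophages split by the Cxcl9 and Cxcl10 UMIs per 10000 UMIs of the cell, by library. Sums run from 1495 and 1759 CPM to 4888 and 6062 CPM in Vcan monocytes, and the library labelled Irg1-/- lies above the other in all 6 classes.

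Subsets of T cells differed in level. Those with Foxp3, the mark of regulatory T cells, and no Cd8a or Cd8b1 UMI had the highest sum, at 1963 CPM (1877 to 2052) in 174 cells and 1662 CPM (1550 to 1780) in 74 cells. It was the one of these 3 T cell subsets by Foxp3, Cd4 and Cd8 with a lower sum in the library labelled Irg1-/-, a ratio of -0.24 (-0.36 to -0.12), with Gbp9 at -1.12, Gbp4 at -0.46 and Gbp7 at -0.45. T cells with 2 or more Cd8a and Cd8b1 UMIs and neither Cd4 nor Foxp3 had 821 and 919 CPM (0.16, 0.09 to 0.24) and those with Cd4 but no Foxp3, Cd8a or Cd8b1 UMI 1108 and 1306 CPM (0.24, 0.05 to 0.43). T cells with 2 or more of 4 cycling markers (797 and 907 CPM) had lower sums than T cells without a cycling marker (1546 and 1602 CPM). The ratios were 0.187 (0.125 to 0.249) with and 0.052 (-0.047 to 0.149) without cycling markers.

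Genes upstream and downstream of the family were taken from lists chosen by function. Of the ligands, Ifng UMIs came chiefly from T cells (2279 and 1447 UMIs, 251 and 266 CPM) and NK cells (262 and 554 UMIs, 181 and 239 CPM), with a log2 ratio of 0.08 (-0.01 to 0.18) in T cells, 0.40 (0.19 to 0.62) in NK cells and -0.07 (-0.14 to 0.01) over all kept cells. Ifnb1, a type I interferon, was lower in the library labelled Irg1-/-. It had 152 and 39 UMIs over all kept cells, a ratio of -1.69 (-2.25 to -1.19), where 9.82% of all genes were at least 1.5-fold lower, and 87 and 17 UMIs in macrophages, a ratio of -1.90 (-2.77 to -1.17), where 7.28% were. The receptor chain Ifngr1 was at 285 and 298 CPM in Vcan monocytes, a ratio of 0.06 (-0.07 to 0.20). Of 9 signal transducers, Stat2 and Irf7 were at least 1.5-fold higher in the library labelled Irg1-/- in Vcan monocytes, where 5.87% of all genes were, and Stat2, Irf1 and Irf7 in macrophages, where 5.04% were. Socs1, an inhibitor of this signal, was at 54.3 and 119 CPM in Vcan monocytes (1.13, 0.87 to 1.40).

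Partner GTPases were counted in the same way. Of the 10 immunity-related GTPases counted, 6 were at least 1.5-fold higher in Vcan monocytes (median 0.81, against 5.87% of all genes), 4 of 10 in macrophages (median 0.55, against 5.04%) and 7 of 10 in conventional dendritic cells type 1 (median 0.87, against 5.91%). In T cells 2 of 10 were higher (3.24% of all genes) and 1 was lower (6.62%), with a median of -0.06. Neutrophils had 1 of 7 higher (10.9% of all genes) and 1 lower (18.8%) with a median of 0.12, and eosinophils 0 of 5 higher (14.4%) and 2 lower (13.2%) with a median of -0.43. Iigp1, which acts on parasite vacuoles, was at 94.0 and 302 CPM in Vcan monocytes (1.68, 1.5 to 1.88) and at 249 and 458 CPM in macrophages (0.88, 0.80 to 0.96). Of the genes induced by interferon gamma that had 20 UMIs, 1 of 8 was higher (Batf2, against 5.87% of all genes) and 1 lower (Nos2, against 7.48%) in Vcan monocytes, and 2 of 8 were higher in macrophages (Ciita and Serpina3g, against 5.04%). Counts of 1 in 8 are near those shares. Cxcl9 was at 757 and 1014 CPM in Vcan monocytes (0.42, 0.35 to 0.50) and Nos2, inducible nitric oxide synthase, at 48.0 and 30.6 CPM (-0.65, -1.02 to -0.28). Of 9 type I interferon induced genes, 5 were higher in Vcan monocytes and 4 in macrophages, against the same shares, among them Isg15 at 387 and 627 CPM in Vcan monocytes. Mature dendritic cells, where 0 Gbp genes were counted, had 8 of these 9 higher (median 1.09), against 6.19% of all genes. Against the same share, 5 of 8 genes induced by interferon gamma (median 0.70) and 5 of 9 immunity-related GTPases (median 0.63) were higher. Nos2 was lower there, against 8.66% of all genes. Other gates differed in the type I genes. Plasmacytoid dendritic cells had 0 of 9 higher (8.87% of all genes) and 3 lower (11.1%). B cells had 1 of 6 higher (11.4%) and 3 lower (12.9%), and neutrophils 2 of 9 higher (10.9%) and 4 lower (18.8%). Conventional dendritic cells type 1 had 7 of 9 higher (5.91%). Of the interferon gamma list, neutrophils had 0 of 5 higher and 3 lower, against the same shares. Plasmacytoid dendritic cells had 3 of 7 higher and 2 lower. Of 8 inflammasome genes 1 was higher in Vcan monocytes (Il18, against 5.87% of all genes) and 0 in macrophages (5.04%), with medians of 0.26 and 0.29. The prenylation enzymes that serve the CaaX box (6 genes) and the Atg8 conjugation machinery (8 genes), which directs the family to vacuoles, had medians of -0.12 and -0.08 in Vcan monocytes and of -0.09 and -0.04 in macrophages.

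Over the 24 gate and library sums, the gene closest to the summed family by Pearson correlation of log2(CPM + 1) was Sbno2 (r = 0.87), then Parp14, Oas1g, Ifitm3, Casp4, 1600014C10Rik, Ifitm6, Ist1, Ly6i and Dram1 (r = 0.82), out of 10737 genes compared. The points share libraries, free RNA and depth, and the 24 sums are not independent. Gbp2 itself had r = 0.95 with the sum of which it is the main part. Members did not follow one another closely, with r between -0.29 and 0.78 over the 36 pairs (median 0.24). Each had its own closest genes, such as Aif1, a macrophage gene, for Gbp2b (r = 0.79), Il2rg, a lymphocyte receptor chain, for Gbp4 (r = 0.76), Igtp, an immunity-related GTPase, among those of Gbp7 (r = 0.84) and Calhm6 for Gbp3 (r = 0.87).

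Several other signals differed between the libraries in the same gates. In Vcan monocytes the summed dissociation stress genes were at 3994 and 5651 CPM (Fos most abundant, none of 8 at 0), with 3 of 8 at least 1.5-fold higher, where 5.87% of all genes were. The 5 melanoma markers (Dct most abundant) were at 131 and 35.6 CPM, with 0 of 5 and 1 of 5 at 0, and the 2 neutrophil genes S100a8 and S100a9 were at 12.7 and 43.5 CPM. In macrophages the 6 Vcan monocyte markers were at 1589 and 2583 CPM (Ccr2 and Ly6c2 most abundant, none at 0), the 3 C1q genes at 7114 and 7162 CPM, and the stress genes at 5757 and 6830 CPM with 0 of 8 past 1.5-fold, where 5.04% of all genes were higher. In conventional dendritic cells type 1 the C1q genes were at 1017 and 657 CPM and the Vcan monocyte markers at 1050 and 1742 CPM. In T cells the C1q genes were at 614 CPM in both libraries, and the Vcan monocyte markers at 1368 and 1850 CPM (Ly6c2 most abundant, which T cells also express). The Vcan monocyte markers had higher values in the library labelled Irg1-/- in all 12 gates, such as 470 and 835 CPM in mature dendritic cells. In conventional dendritic cells type 2 they were at 1510 and 2428 CPM. The stress genes were at 3817 and 5414 CPM there, with 3 of 8 higher, against 6.49% of all genes. Nonclassical monocytes had stress genes at 3430 and 5334 CPM with 5 of 8 higher, against 6.69% of all genes. In plasmacytoid dendritic cells the stress genes were at 3859 and 2234 CPM, the C1q genes at 838 and 1212 CPM and the 4 cycling markers at 179 and 423 CPM. The 6 NK cell markers were at 34.7 and 72.9 CPM in macrophages. Their largest ratio was in B cells, at 19.5 and 145 CPM on 4 and 31 UMIs. They had higher values in the library labelled Irg1-/- in all 12 gates. The 5 melanoma markers had lower values there in all 12 gates, such as 156 and 39.3 CPM in T cells. The part of these signals in the Gbp ratios was not tested.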

How the data were processed

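The authors sequenced Cd45+ cells captured with BD Rhapsody, and the deposited matrices contain raw UMI counts by gene and barcode on GRCm38. The submitters' processing notes name CASAVA 1.8, UMI-tools and Seurat. UMIs tag 3' ends of molecules and were not divided by gene length.

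Cells needed more than 200 genes and a mitochondrial share below 10%, which removed 124 and 102. Gates used the mean z score of log1p UMIs per 10000 over each of 14 marker sets (at least 0.5, at least 0.25 above the next, at least 2 markers detected), and 749 and 662 ambiguous cells were left ungated. These thresholds were set after seeing marker genes, not Gbp genes. No doublet caller was used and doublets were kept.

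UMIs were summed per gate and library, with a pseudocount of 0.5 UMIs in ratios. Genes needed 20 UMIs in the libraries together to be counted at 1.5-fold. With 1 library per genotype no test was made. The summing and counting steps were tested on simulated data. Named genes are the members, Acod1, Gbp10, genes of 12 functional lists, and the genes closest by correlation (10 for the sum, the first 3 for each member) among those with at least 200 UMIs. Look-alikes, subset markers and leading genes were named beside them. Gbp11, Gm12250, Mx1 and Cxcl11 were not analysed here, and some markers, list genes and macrophage subsets are not reported here. Members and lists were chosen with earlier results of these data known. The first promoter motif was searched as TTTCNNTTC, which lacks 1 base (2 of 6 entries, 7.52% of promoters), and was corrected after the sequences had been seen. Alternatives were other filters, gates, scalings, thinning, folds and minimums. Python 3.11.15, numpy 2.4.6, scipy 1.17.1, pandas 2.3.3, matplotlib 3.10.9 and edgeR 4.0.16 in R 4.3.3 (TMM factors only) were used.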

Additional observations from a re-analysis of the deposited data

Results flagged for a closer look

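Gbp9 and the T cell subsets went in opposite directions in different cells, with counting intervals on either side of 0, and these differences were not tested. The log2 ratio of Gbp9, library labelled Irg1-/- over library labelled Irg1+/+, was 0.59 in conventional dendritic cells type 1 and -0.44 in T cells. That of the summed family was -0.24 in T cells with Foxp3 and no Cd8, 0.16 in T cells with Cd8 and neither Cd4 nor Foxp3 and 0.24 in T cells with Cd4 and neither Foxp3 nor Cd8.

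Signal was also present in cells and genes outside the comparisons. The 124 and 102 cells removed by the limits on mitochondrial share and gene number held 1241 CPM and 2186 CPM of the family. The 1730 and 1478 cells in no gate held 1670 CPM (1642 to 1698) and 2402 CPM (2366 to 2438). Gbp10, whose transcripts share 60.1% of their stretches of 100 bases with Gbp6, had 60 UMIs and 51 UMIs.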

How the results depend on the processing

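With 1 library per genotype no setting replaces replication, and granulocytes, B cells and plasmacytoid dendritic cells rest on few cells and UMIs. The first place of Vcan monocytes was kept under all 20 alternatives for the 2 libraries. The ratio of the sum stayed above 0 under all alternatives in all gates but 4. These were eosinophils (lowest -0.27), neutrophils (lowest -0.02), NK cells (lowest -0.01) and T cells (lowest -0.03). Over all kept cells it was 0.53 as reported, 0.51 with a mitochondrial share under 5%, 0.60 with TMM scaling, 0.54 without the 100 most abundant genes in the total, 0.39 as the mean of each cell's CPM, 0.40 after thinning, 0.48 without the 5% of cells with the most UMIs and 0.43 at the cell shares of the other library. In macrophages it was 0.61 with the stricter mitochondrial limit and 0.63 without the deepest cells, and in Vcan monocytes 0.35 with stricter gates. In T cells it was -0.009 with the stricter mitochondrial limit, 0.10 with no margin between gates (chosen after seeing the data) and -0.03 without the deepest cells. Eosinophils reversed to -0.27 with over 500 genes per cell, -0.25 with stricter gates and -0.089 with no margin. TMM moved the ratio by over 0.1 in neutrophils alone, by 0.20. At 2-fold in place of 1.5-fold, 1 member, Gbp2b, was counted in macrophages (of 4, with 1.46% of all genes) and in Vcan monocytes (of 4, 1.45%). In conventional dendritic cells type 1 the count was 2 (of 7, 1.53%). Leaving out cells whose barcode occurs in both libraries (also chosen after seeing the data) moved none of the 15 values it was run on beyond counting error. The cause of these shifts was not tested. No paired analysis was possible because there is 1 library per genotype.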

Other observations

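Gates too small for comparison also held the family. Mast cells (Tpsb2, Mcpt4, Cpa3), 8 and 41 cells, had 3584 CPM (3156 to 4054) and 2355 CPM (2172 to 2548) of the summed genes, the first above Vcan monocytes of the same library (2562 CPM) and the second below (3377 CPM), and melanoma cells (Pmel, Mlana, Dct), 148 and 25 cells carried through the Cd45 sort, had 758 CPM (718 to 800) and 1014 CPM (906 to 1132).

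By origin, macrophages supplied 20.7% and 20.3% of all Gbp UMIs from 12% and 11.5% of the cells, Vcan monocytes 13.5% and 17.4% from 8.56% and 11.1%, and T cells 16.6% and 8.5% from 20.2% and 12%.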
